A study of Gasterosteus aculeatus with 12 samples.

Results

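Tight clusters of open-chromatin peaks lying well inside the autosomes of the threespine stickleback (Gasterosteus aculeatus) are described here. The clusters were chosen by the positions and widths of the peaks themselves. A cluster, called a run below, was a series of at least 4 successive peaks in which every gap between neighbours was under 1000 bp. Every peak of a run lay more than 2 Mb from position 0 and from the end of the last peak of its chromosome, on chromosomes I to XXI with IV, XI, XIX and XXI left out. The members are the peaks narrower than 2500 bp in these runs. The rule found 106 runs holding 477 peaks, of which 429 were members and 48 were wider. The members were 2.93% of the 14654 peaks below that width in the same inner parts of the same 17 chromosomes and 1.20% of the 35808 peaks in the list.

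The peaks came from ATACseq of primary spermatocytes from 3 marine and 3 freshwater pools of wild-derived River Tyne fish, each pool being the testes of 3 adult males. From each pool 50000 cells were sorted by size and complexity, and a control library was prepared from naked DNA of every pool. The testes were taken in the last weeks of the short-day period, when the first round of meiosis runs in that facility. The reads of both ecotypes were merged before the list was made, so no peak has a value per pool, marine and freshwater fish could not be compared, and no error below describes the spread between pools. No marker gene of spermatocytes could be checked, because the list holds no gene names, and the genes at these runs were not analysed here.

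In ATACseq, the Tn5 transposase cuts where DNA is free of nucleosomes and leaves sequencing adapters there, so that reads pile up at promoters, enhancers and other open elements. Open elements often lie close together, around a promoter or along a set of enhancers of one gene. Primary spermatocytes are the cells of the testis that enter meiosis, when chromosomes are compacted along protein axes, break and recombine. Peak callers join stretches of enriched bases that lie close together and report stretches farther apart as separate peaks, so a broad open domain of uneven signal can appear as a row of peaks.

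For each peak the list gives a fold enrichment, the read coverage at the peak's highest point (its summit) over the coverage that the peak caller took as local background. The coverage and the background were recovered here from the fold enrichment and its p-value, and they are given below as reads at the summit and as reads of background. The lowest background the caller used was the genome level of 62.8 reads. Positions, widths and fold enrichments all belong to the same peak calls as the rule, and none exists per pool. No test was therefore run: differences between members and other peaks are set against the spread between chromosomes, and intervals are 95% counting intervals of the summit reads, which cover counting error only.

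The runs were short and densely filled. Of the 106 runs, 73 held 4 peaks, 19 held 5, 9 held 6, 4 held 7 and 1 held 8. A run spanned a median of 5535 bp (quartiles 4219 and 7637 bp, range 1959 to 25119 bp), and all runs together spanned 678.4 kb. Peaks covered a median of 76.5% of a run. The 371 gaps had a median of 345 bp (quartiles 236.5 and 567 bp). The smallest gap in a run was 153 bp, and the smallest gap anywhere on the 21 chromosomes was 151 bp, so peaks closer than that do not occur on them. Unplaced scaffolds were not examined for this. Summits of neighbouring peaks were a median of 1233 bp apart (quartiles 850 and 1822 bp), and the spacing within a run was uneven, with a median coefficient of variation of 42.2%.

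Most runs kept their 4 or more peaks after the wide ones were set aside, but 25 of the 106 had fewer than 4 members left. Wide peaks occurred in 40 runs, with exactly 1 in 35 of them. The limits of the rule cut through a continuous range of values. Only 2 members were within 100 bp below the width limit (median fold enrichment 10.6), and 6 peaks of the runs were within 100 bp above it (median 14.7). Gaps of 900 bp or more occurred 22 times, in 20 runs, and a gap limit of 1100 bp would have given 120 runs.

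The typical member was a weak peak. Members had a median fold enrichment of 2.16 (quartiles 1.74 and 3.67), against 3.77 (quartiles 2.19 and 9.21) for the 14225 peaks outside runs under the same limits. The medians of the 17 chromosomes averaged 2.51 ± 1.37 for members and 3.85 ± 0.327 for peaks outside runs (SD, n = 17 chromosomes). The log2 ratio of the pooled medians, members over outside, was -0.80. By chromosome it averaged -0.71 ± 0.45 (SD, n = 17), below 0 on 16 chromosomes and above 0 on chromosome XV. Without XV the mean was -0.82 ± 0.15 (SD, n = 16), and the highest value was -0.61. A fold enrichment of at least 5 is the minimum at which the study counts peaks of its ChIPseq data. It was reached by 89 of 429 members (20.7%) and by 5959 of the 14225 peaks outside runs (41.9%). Over all narrow peaks of the inner parts, members included, the share was 41.3%. Because the rule used these calls, that contrast is a description.

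Both parts of the fold enrichment contributed to the lower values, the reads more than the background. Members had a median of 191 reads at the summit, against 310 for peaks outside runs, a ratio of 0.616, and had fewer reads on 16 of 17 chromosomes. The median background was 75.0 reads at members and 69.0 reads at peaks outside runs, a ratio of 1.09. It was higher at members on 13 chromosomes and lower on 4. The background stood at the genome level for 116 members (27.0%) and for 5308 peaks outside runs (37.3%). Members were also narrower, with a median width of 570 bp against 757 bp outside runs, on 16 of 17 chromosomes.

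**Figure D1:**
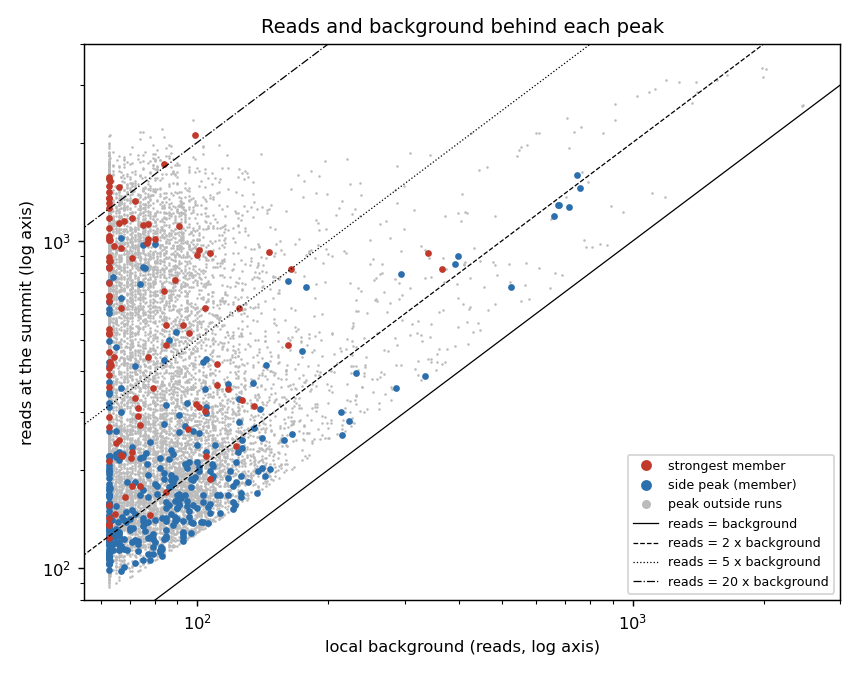
Reads at the summit against local background, both in reads on log axes, for the strongest member of each of 106 runs (red), the other members (blue) and peaks outside runs (grey); the lines mark reads equal to 1, 2, 5 and 20 times the background. The column of points at the left is the genome level of 62.8 reads; most blue points lie near the line of 2 times the background, and a small set of members lies at much higher backgrounds of up to 755 reads.

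The weak values were those of the side peaks, that is, of the members other than the strongest of each run. The strongest members had a median fold enrichment of 6.47 (quartiles 3.19 and 13.9, range 1.74 to 24.6), and 63 of 106 reached 5 (59.4%). That median was 3.99 when peaks closer than 300 bp were joined first and 13.3 without the width limit. Of the strongest narrow peaks of pairs and of runs of 3, 54.2% and 57.9% reached 5. A share near 59.4% was therefore not particular to these runs. The 323 side peaks had a median of 1.92 (quartiles 1.64 and 2.62), and 26 reached 5 (8.05%). A strongest member had a median of 555.5 summit reads over a background of 67.6 and was 1378.5 bp wide, while a side peak had 167 reads over a background of 79.0 and was 458 bp wide. The highest of several peaks is above the typical one by construction, so the gap within runs is not a finding by itself. The first quartile of summit reads outside runs was 179, and 181 of the 323 side peaks (56.0%) had fewer. Side peaks of pairs and of runs of 3 had medians of 179 and 171 reads, so low reads were not particular to these runs.

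Within a run, the strongest member stood a median of 2.83 times above the median side peak (quartiles 1.45 and 6.89) and 1.86 times above the second member. The ratio was at least 5 in 37 runs and below 2 in another 37. The strongest member was chosen as the highest, so its interval tends to lie above the others by construction. The intervals also took the background as exact. The interval of 267 side peaks (82.7%) lay wholly below that of their run's strongest member, and the other 56 overlapped it, in 33 runs. The median of the side peaks changed little with the height of the strongest, while their upper quartile rose. In the 23 runs whose strongest member was below 3, side peaks had a median of 1.80 and an upper quartile of 1.99. Strongest members of 3 to 5 and of 5 to 10 went with medians of 1.99 and 2.12 and upper quartiles of 2.55 and 2.85. In the 40 runs whose strongest reached 10, the values were 1.95 and 3.22. No side peak exceeds its strongest member, so that rise is partly fixed. The list holds only called peaks, so weaker stretches are missing from these medians. In those 40 runs 17.2% of side peaks reached 5, which no side peak can do where the strongest member is below 3.

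**Figure D2:**
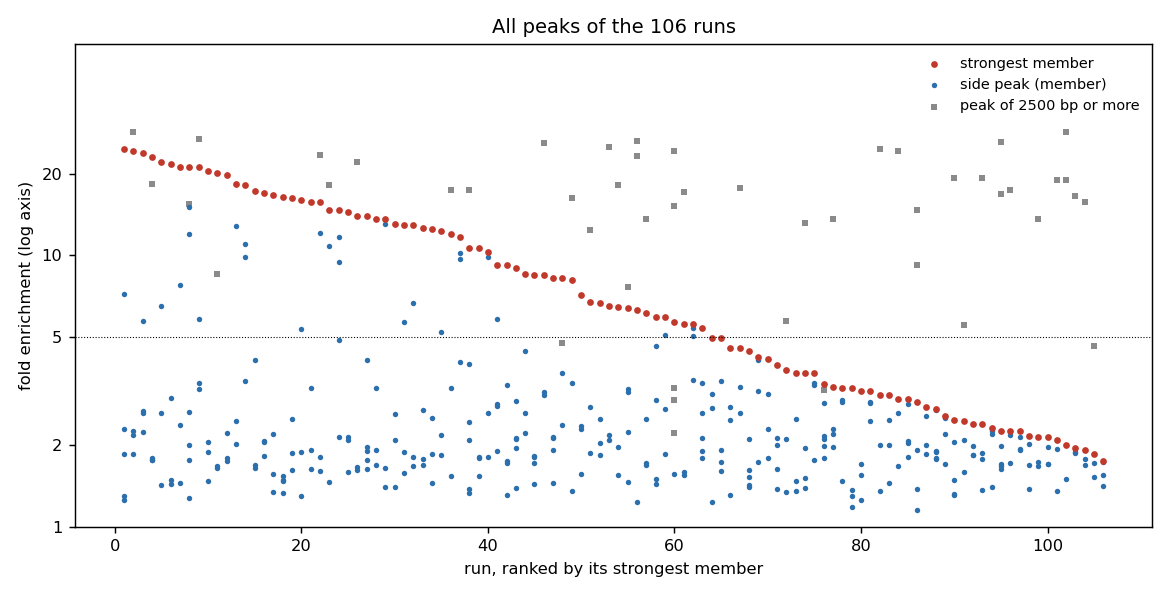
Fold enrichment (log axis) of all 477 peaks, 1 column per run, with the 106 runs ranked by their strongest member (red); side peaks are blue, peaks of 2500 bp or more are grey squares, and the dotted line is a fold enrichment of 5. The red points span 1.74 to 24.6, while side peaks have a median of 1.95 in the 40 runs at the left and 1.80 in the 23 runs at the right; grey squares stand above the red point in 35 runs.

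The side peaks that were called did not weaken with distance from the strongest member either. Stretches too weak to be called are not in the list, so a decline could be missed. Their median fold enrichment was 1.88 within 1 kb of its summit (n = 47), 1.85 at 1 to 2 kb (n = 115), 1.94 at 2 to 3 kb (n = 75) and 2.10 at 3 to 20 kb (n = 83), and 3 lay farther away. The peaks next to the strongest in order had a median of 1.89, and those 3 or more places away had 2.06. Summits of side peaks did not lean to the inside. The summit lay on the side of the peak nearer to the strongest member in 164 of 323 side peaks (50.8%). Both measures refer to the strongest member, although a wide peak was higher in 35 of the 106 runs. The 66 runs without a wide peak were not taken separately.

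No run was strong throughout, as none had every member at 5 or above. No member reached 5 in 43 runs, exactly 1 did in 42, and 2 or more did in 21. With wide peaks counted, 26 runs had no peak at 5 or above, 40 had exactly 1 and 40 had 2 or more, among them 10 with 3 or more. The wide peaks in runs were strong, with a median fold enrichment of 17.2 and 1181.5 summit reads, and 42 of 48 reached 5 (87.5%). The 833 wide peaks of the inner parts that lay outside runs had a median of 15.2. A wide peak was the strongest of all in 35 of the 40 runs that held one. The strongest of all stood at an end of the run in 51 of 106 runs (48.1%), and the end positions made up 45.7% of the positions of a run on average over runs.

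Runs with a wide peak and runs without one were compared by their members. Members of the 40 runs with a wide peak had a median fold enrichment of 2.09, against 2.22 in the 66 runs without one. Their strongest members had 5.64 and those of runs without a wide peak had 8.74. A wide peak, the strongest of all in 35 of those 40 runs, was not counted as a member, so 5.64 is often the value of a lower peak. Side peaks had 1.86 in runs with a wide peak and 1.96 in runs without. The median of side peaks was therefore similar in both kinds of run. A fold enrichment of 5 was reached by 4.90% of 102 side peaks in runs with a wide peak and by 9.50% of 221 in runs without. With the wide peak set aside, side peaks are often of lower rank in their run, so that difference is partly fixed by construction.

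The plot of 6 runs along the chromosome shows the forms that runs took. The run with the most members lay on chromosome XVIII from 10333696 to 10347078 (gasAcu1 coordinates, counted from 1) and held 8 peaks, 7 of them members. In order, its fold enrichments were 15.0, 15.4 (a peak 2677 bp wide and so no member), 1.27, 1.76, 12.0, 21.1, 2.01 and 2.66. It thus held 4 strong peaks, with 2 weak ones in the middle and 2 at one end. The strong members had 1023, 779 and 1351 summit reads, and the weak ones 156, 167, 142 and 169.

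The highest member of all runs ended a run on chromosome VII, from 4544162 to 4551785. Its 6 members had fold enrichments of 2.30, 7.19, 1.85, 1.25, 1.30 and 24.6. The last had 1574 reads at its summit (interval of the fold enrichment 23.4 to 25.9), and the peak at 1.25 had 152 reads over a background of 121, with an interval of 1.06 to 1.47. A run on XVIII from 9565849 to 9573687 had a pair of strong peaks with weak ones between and after them. Its wide peak had 28.4, and its members had 2.17, 1.85, 24.2 and 2.25. On chromosome X, from 8256522 to 8262217, the 5 members had 2.63, 2.66, 5.73, 2.24 and 23.8, again with the strongest at one end.

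In other runs a strong member stood next to side peaks that were all weak. On chromosome XVI, from 9846923 to 9851604, the strongest member of 21.8 stood 14.6 times above the median of its side peaks, the largest ratio of all runs, and those side peaks had 2.97, 1.49 and 1.43. The strong peak was 2112 bp wide with 1461 reads, and its neighbours had 189, 144 and 104 reads. On chromosome VII, from 11129395 to 11138574, a member of 23.0 and a wide peak of 18.3 stood among side peaks of 1.77, 1.79 and 1.77. The weak peaks of that run had 112, 135 and 112 reads, near the lowest values of any member, 98.

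At the other end stood runs in which no member was strong. The lowest strongest member lay in a run on chromosome XIV, from 12482330 to 12484288, the shortest run of all at 1959 bp. Its 4 members had fold enrichments of 1.74, 1.55, 1.42 and 1.74 from 187, 150, 168 and 189 reads, over backgrounds of 106.8, 96.0, 118 and 108. Their intervals all overlapped, so no order among them can be read. On chromosome III, from 14417276 to 14422824, members of 1.53, 1.86 and 1.71 lay beside a wide peak of 4.65. On chromosome IX, from 15325818 to 15334170, members of 1.91, 1.69 and 1.77 lay beside a wide peak of 15.7.

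A broad and low domain was seen on chromosome XVII, from 8584388 to 8609136. Its peaks had fold enrichments of 3.35, 1.79, 3.20, 1.99, 2.85, 2.16 and 2.11, and the peak of 3.20 was 16035 bp wide, the widest peak of any run. The 6 members had 126 to 213 reads, and the background was at the genome level at 5 of them. The next run, starting at 8612075, began 2939 bp after it. On chromosome VI, from 4385828 to 4398897, members of 2.42, 3.99, 1.38, 1.34, 10.7 and 2.09 ended at a wide peak of 17.4.

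**Figure D3:**
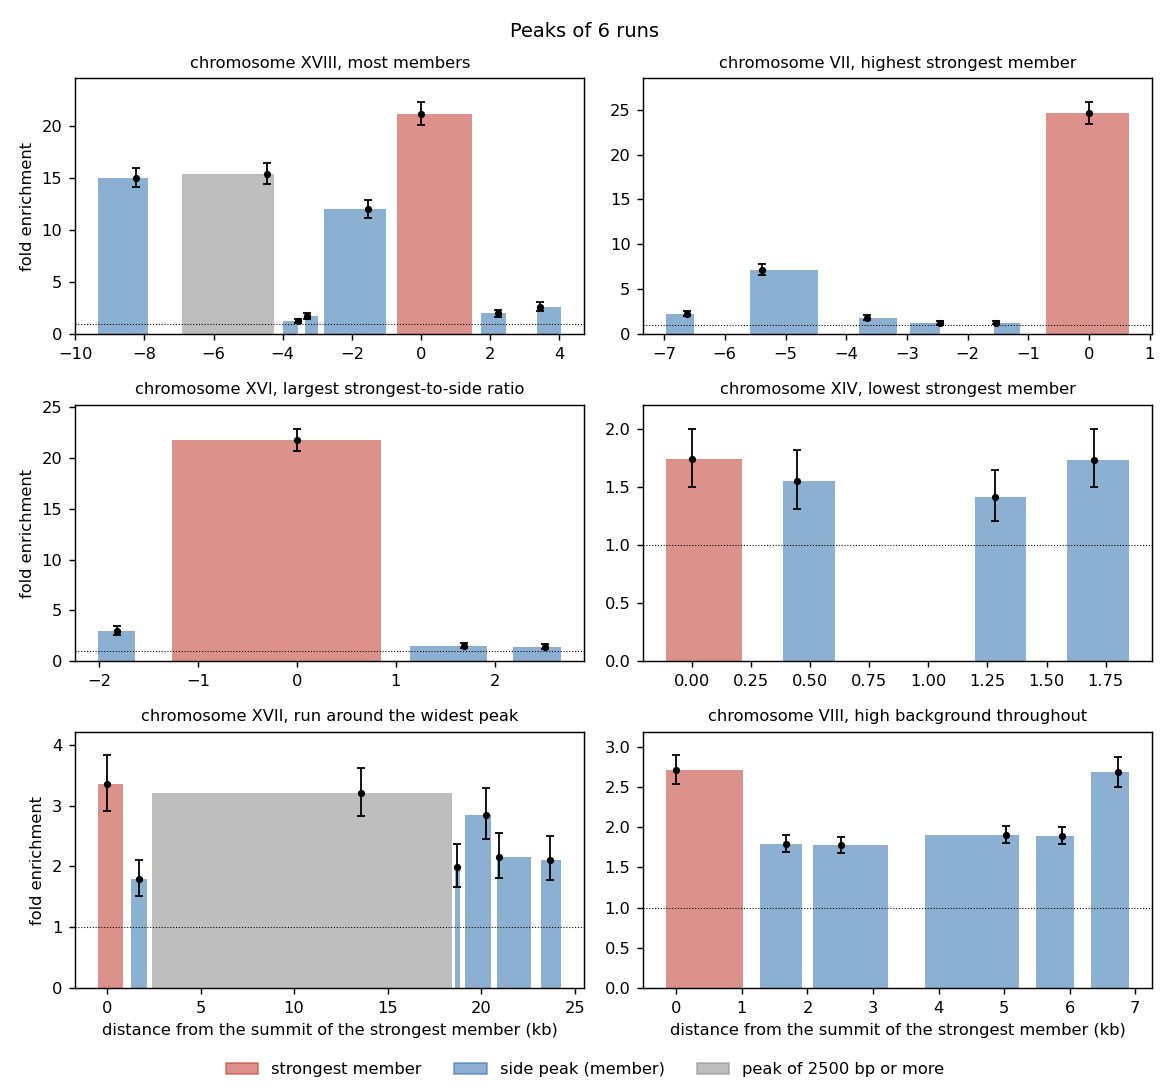
Peaks of 6 runs drawn to scale, with distance from the summit of the strongest member in kb on the x axis and fold enrichment on the y axis; bar widths are peak widths, dots mark summits with 95% counting intervals, and the dotted line is a fold enrichment of 1. The runs on XVIII, VII and XVI reach 21.1, 24.6 and 21.8 and hold weak peaks of 1.27, 1.25 and 1.43 as well, while all peaks of the runs on XIV, XVII and VIII stay at or below 3.35.

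Some members lay at a high local background. Of the 429 members, 44 (10.3%) lay at a background of at least 2 times the genome level, against 882 peaks outside runs (6.20%) and 6.32% of all narrow inner peaks. By run length, the share was 6.04% for lone narrow peaks, 5.72% in pairs and 9.42% in runs of 3. In runs of 4, of 5 and of 6 or more it was 9.77%, 9.20% and 13.2%. A share near that of members was thus also found in runs of 3, outside the rule. The 44 members were chosen by background alone, and some had few reads, such as 165 over a background of 126 on chromosome VI. They fell in 24 runs, and in 4 runs every member was of this kind. The 4 runs lie outside the list of runs to be named and were chosen after their values were seen. The longest of them lay on chromosome VIII, from 9798299 to 9805362. Its 6 members had 921, 1190, 1275, 1292, 1288 and 792 summit reads over backgrounds of 338, 660, 716, 675, 679 and 294 reads, and their fold enrichments were 2.71, 1.80, 1.78, 1.91, 1.89 and 2.68. All 6 counts are above 555.5, the median of the strongest members of all runs. The background is high in the middle of the run and lower at both ends. A run on chromosome VII, from 4704803 to 4708880, had 247, 1596, 823 and 1453 reads over backgrounds of 127, 746, 365 and 755, the last being 12.0 times the genome level and the highest of any member. The other 2 runs began at 2418278 on chromosome V and at 4679016 on chromosome XVI.

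The weakness of narrow peaks went with run length before the limit of the rule was reached. The median fold enrichment was 4.30 for the 9825 peaks that stood alone, 3.10 for 3391 peaks in pairs and 2.58 for 1009 peaks in runs of 3. It was 2.22 for 266 members in runs of 4, 2.15 for 87 in runs of 5 and 2.03 for 76 in runs of 6 or more. Summit reads followed a similar order with 353, 256, 217, 189, 205 and 173.5, in which runs of 5 stood above runs of 4. The background moved the other way, from 69.0 reads at lone peaks to 70.0, 72.0, 75.0, 77.0 and 76.0.

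The strongest and the side peaks behaved differently along this series. The strongest narrow peak had a median of 4.30 where peaks stood alone, 5.69 in pairs, 6.85 in runs of 3, 6.49 in runs of 4, 8.46 in runs of 5 and 5.53 in runs of 6 or more, with only 19 and 14 runs behind the last values. Side peaks had 2.16 in pairs, 2.06 in runs of 3, 1.93 in runs of 4, 1.92 in runs of 5 and 1.91 in runs of 6 or more. In longer runs the strongest is the highest of more peaks, and a side peak is never the highest of its run. Both series are therefore partly fixed by construction. Longer runs also held a larger share of side peaks by construction.

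**Figure D4:**
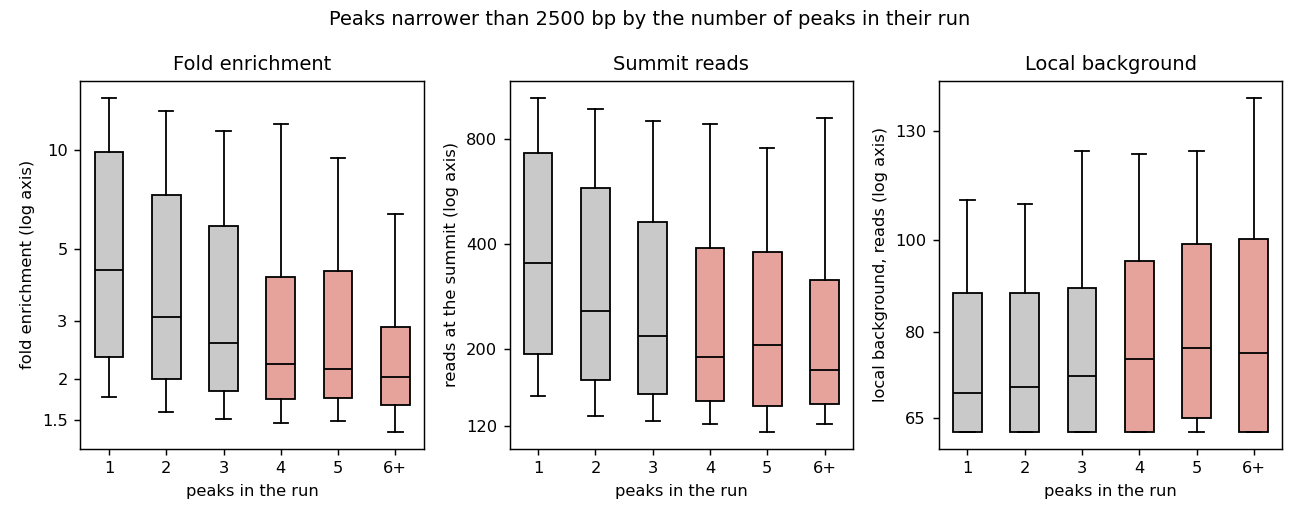
Fold enrichment, summit reads and local background (log axes) of peaks narrower than 2500 bp by the number of peaks in their run, with members in red (4, 5, and 6 or more) and peaks outside runs in grey (1 to 3); lines are medians, boxes quartiles, and whiskers the 10th and 90th percentiles. Median fold enrichment is 4.30 for lone peaks and 2.03 in runs of 6 or more, and median background is 69.0 and 76.0 reads.

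At equal fold enrichment, members were wider than peaks outside runs in the lower middle of the range. Between 2 and 3, the median width was 520 bp for 109 members and 356 bp for 3117 peaks outside runs, wider on 14 of 16 chromosomes, with 179 and 180 summit reads. Between 3 and 5 it was 922 bp for members and 669.5 bp outside, wider on 12 of 15 chromosomes. Between 5 and 10 the widths were 1179 and 1173 bp, members being wider on 7 of 17 chromosomes. From 10 upwards the widths were 1672 and 1638 bp, members being wider on 8 of 14 chromosomes. The rule limits width and measures gaps between peak edges, so these contrasts may be partly fixed by it and are a description. The share of narrow peaks that were members was 7.43% at fold enrichments of 1 to 1.5 and 1.53% at 10 or more.

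The runs were spread over all 17 chromosomes at 0.422 per Mb of inner part (0.424 ± 0.176, SD, n = 17 chromosomes). Chromosome XVIII had 0.651 per Mb, XVI had 0.638 and VII, with 14 runs, had 0.585. The fewest were on XIII with 0.124, II with 0.155 and XV with 0.164. The density of runs showed little relation to the density of peaks over the chromosomes (Pearson r = 0.12, Spearman rho = 0.09, n = 17, a description over 1 list).

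Chromosome XV stood apart in fold enrichment. Its 8 members had a median of 7.75, against 4.03 for its 715 peaks outside runs. They came from only 2 runs, named here after their values were seen, with members of 11.7, 4.03, 9.68 and 10.2 in the run from 2657443 and of 5.83, 3.21, 21.1 and 3.39 in the run from 6067702, so that value rests on a few peaks.

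**Figure D5:**
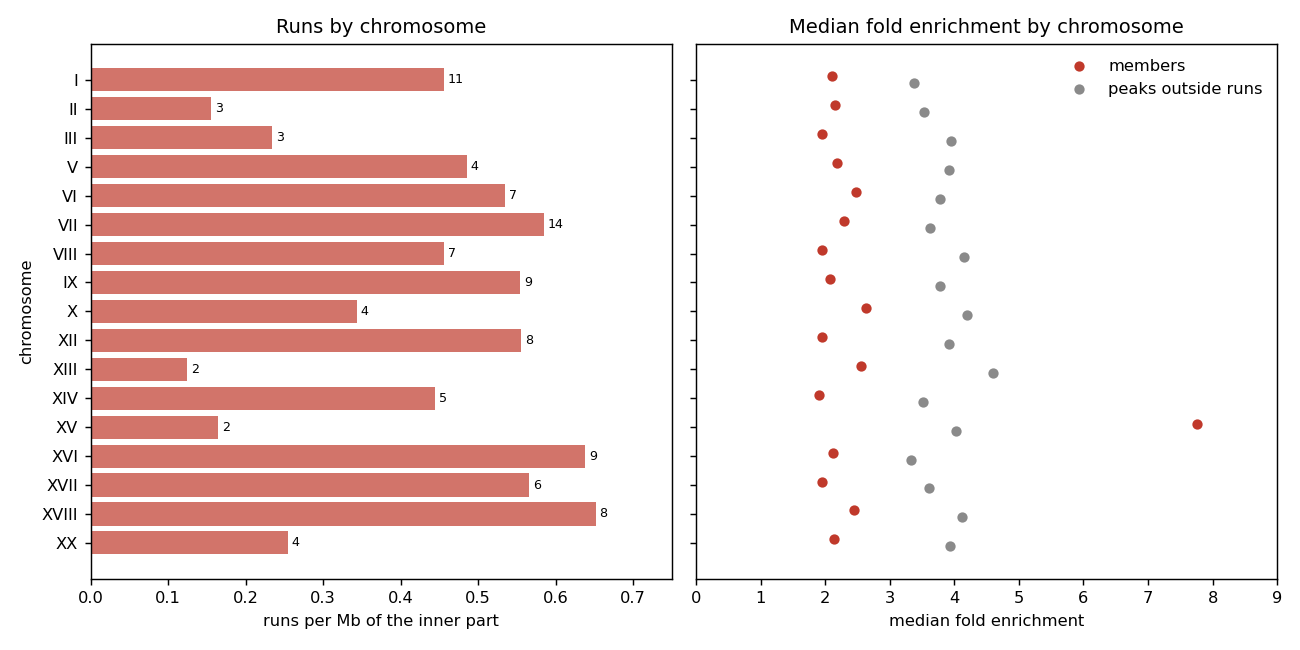
Left, runs per Mb of the inner part of each chromosome, with the number of runs beside each bar; right, median fold enrichment of members (red) and of peaks outside runs (grey). Densities run from 0.124 on XIII to 0.651 on XVIII, and members have the lower median on 16 of 17 chromosomes, XV with 2 runs being the exception.

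Along the inner parts, cut into 5 equal segments, 24, 13, 23, 21 and 25 runs were found from the start to the end of the chromosome. The second segment held 12.3% of runs and 18.7% of the peaks outside runs. The inner parts, with their 0.422 runs per Mb, were far sparser than the 2 Mb ends that the rule leaves out, where the same spacing gave 220 runs in 68.0 Mb, or 3.24 per Mb. Peaks of any width numbered 61.8 per Mb in the inner parts and 109 per Mb in the ends. The share of peaks lying in runs was 3.07% in the inner parts and 15.4% in the ends, so the density of runs differed by more than that of peaks. A run needs several short gaps in a row, so its density can rise faster than that of peaks. Whether the difference exceeded this was not tested.

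Distances from runs to the next peak and to the next run were not set against a matching value for peaks outside runs. The next peak beyond either end of a run was a median of 7104 bp away (quartiles 2865 and 18517 bp), although 38 of 212 such distances were under 2000 bp. The next run on the same chromosome began a median of 1234558 bp farther on (n = 89). In 12 cases it lay within 100 kb, 4 of them on chromosome IX, and in 5 within 10 kb. The closest pair lay on chromosome III. A run from 14413961 to 14416255, with members of 1.99, 1.84, 1.84 and 2.39, was followed by the run from 14417276 after a gap of 1020 bp. A distance this close to the gap limit would make it a single run under a slightly wider rule.

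Distances from members to wide peaks were partly fixed by construction, because 142 members lay in the 40 runs that themselves held a wide peak. The median distance to a peak of 2500 bp or more was 26118 bp for all members and 78165 bp for peaks outside runs. Within 10 kb of one lay 178 members (41.5%), against 1689 peaks outside runs (11.9%). The 66 runs without a wide peak, with 287 members, lay a median of 108857.5 bp from the nearest. That median is taken over runs, and it was above the 78165 bp of peaks outside runs. Runs chosen for holding no wide peak cannot have one within the gap limit of the rule, while peaks outside runs can. The higher median is therefore partly fixed by construction, and nearness to wide peaks cannot be judged from it.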

How the data were processed

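Peaks were analysed from 1 deposited list, which holds the 3 marine and 3 freshwater ATACseq libraries merged. Reads were aligned by the authors to the gasAcu1 assembly and cleared of mitochondrial sequence and of PCR copies. Each library was then thinned to the depth of the shallowest, and MACS2 was run with read ends extended to 200 bp. The aligner, and whether the 6 naked DNA libraries served as the background, are not given in the sources used here. Depth per library was not analysed here. The submitters' processing notes also name SAMtools. The deposited columns hold positions, the fold enrichment (a ratio, computed by the authors), its −log10 p-value and −log10 q-value, and a score, which was not used for results. The number of columns left unmatched to samples was 0.

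Gaps were the next start minus the previous end, on whole chromosomes, before ends were removed; the last peak set the end of each chromosome. Summit reads and local background were solved from the deposited fold enrichment and −log10 p under the caller's Poisson model, with a pseudocount of 1. This succeeded for 28744 of 28764 peaks on the chromosomes (99.9%) and for all 429 members. The plan was to use these values only if the coverages were whole numbers. They were whole after a common scale of 0.998 reads, and the backgrounds fell on the steps that whole reads in windows of 200, 1000 and 10000 bp give, so they were used; this was decided after the values were seen. A second, looser pass that allowed only whole backgrounds solved 139 of these peaks, 7 of them members. On 3000 peaks simulated under the same model and window steps, the solution returned the true values in 100%. That simulation was not built to cover the highest backgrounds and cannot show that the model holds for the deposited peaks. Peaks with the same fold enrichment can rest on different reads, so the depth behind each value is the summit reads, from all 6 libraries together.

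The members and lists were chosen with earlier results of these data known. Runs are named where they are among the first 3 by number of members, by the highest or lowest strongest member or by the ratio of strongest to median side peak, or are the closest pair; exceptions are stated. The planned list of runs with all members at 5 or above was empty. Alternatives changed the gap limit, the number of peaks, the width limit, the chromosome ends, the chromosomes, the q-value or fold enrichment minimum and the joining of close peaks. The software was Numba 0.67.0, SciPy 1.17.1, NumPy 2.4.6, pandas 2.3.3 and Matplotlib 3.10.9 under Python 3.11.15.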

Additional observations from a re-analysis of the deposited data

How the results depend on the processing

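Of 12 alternative settings, 11 gave values, and 2 of them were chosen after seeing the data (leaving out runs with a wide peak, and leaving out high backgrounds). The median of summit reads was likewise added after seeing the data, and 29 of the 110 recomputed values come from these additions. Of the 110, 91 moved by less than the spread between chromosomes or their limits, 19 moved by more and 0 changed direction. Only the log2 ratio has a direction to change. For the median fold enrichment of members that spread was 1.37, and it was 0.236 without chromosome XV. Against the smaller spread, values such as 2.45 for runs of at least 3 peaks and 2.80 with the q-value limit would count as moved from 2.16. The log2 ratio of median fold enrichment, members over peaks outside runs, was below 0 in 11 of 11 settings that gave runs (-0.91 to -0.68). The numbers of runs and members were set by the rule: 467 and 1438 for runs of at least 3 peaks, 33 and 163 for at least 5, 257 and 1119 for gaps under 2000 bp, 40 and 165 for gaps under 500 bp, 31 and 122 with weaker q-values than 1e-10 removed, and 33 and 118 after peaks closer than 300 bp were joined. Leaving out runs with a wide peak left 66 runs. The share of runs whose strongest peak reached 5 was 68.9% for gaps under 2000 bp, 70.0% under 500 bp, 74.2% with the q-value limit, 75.5% without the width limit and 42.4% after joining. The median strongest peak was 13.3 without the width limit and 3.99 after joining, against 6.47. With peaks below a fold enrichment of 5 removed, no run of 4 peaks was left and no value could be given. No paired analysis was possible because the list merges all 6 libraries, and for that reason no library could be left out. Members had at least 98 summit reads each, and a limit set by depth was not tested.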
